A study of Homo sapiens with 6 samples.

Results

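The receptors of the epidermal growth factor receptor (EGFR) family and the ligands that bind them were followed in HCT116, a line of human colorectal cancer cells, in which a lentiviral short hairpin RNA (shRNA) lowered PNO1, a nucleolar protein needed to mature the small ribosomal subunit. The knockdown group is called sh-PNO1, and the group given a Control shRNA by the same kind of virus sh-Ctrl. RNA was taken after 72 h from 3 samples in each group, and each sample was hybridised to 1 Affymetrix array. Both groups carry a lentivirus; the labels describe 1 cell line, 1 hairpin name for the target and 1 for the control, and name no separate cultures behind the replicates. The p-values therefore rest on array-to-array spread that may be purely technical. The genes were 3 receptors (EGFR, ERBB2, ERBB3) and 5 ligands (AREG, EREG, TGFA, HBEGF, BTC), and their probe sets were all those whose platform annotation gives that 1 gene symbol. This gave 28 of the 49293 probe sets tested, for 7 of the 8 genes; no probe set was matched to AREG, which was not analysed here. Values are intensities on a linear scale, and changes are log2 fold changes, sh-PNO1 minus sh-Ctrl, so that a value below 0 is a decrease.

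EGFR family receptors span the plasma membrane. Binding of a ligand to the outer part of EGFR lets it pair with itself or with ERBB2 or ERBB3, and the kinase parts inside the cell then pass the signal to the RAS to ERK and PI3K to AKT routes. ERBB2 binds no known ligand and serves as a partner, while ERBB3 binds neuregulins and has little kinase activity of its own. The ligands are made as membrane proteins and released by metalloproteases of the ADAM family. Colorectal cancers often make AREG and EREG, and EGFR is a drug target in this disease.

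The genes lie on several chromosomes, but EREG, AREG and BTC share a cluster on chromosome 4. In the order of the RefSeq gene table of GRCh38.p14, EPGN, EREG, AREG and BTC are direct neighbours among protein-coding genes there. Promoter sequence from RefSeq (GRCh38.p14) was found for 7 of the 8 genes, with 9 entries in all. The 250 bases before the annotated start are shown for the 4 genes with the clearest decreases described below, because their layouts differ. Capitals mark every GC box, searched for as GGGCGG on both strands. They also mark every TATA box, searched for likewise as TATAAA, and every CCAAT box, whose name spells its letters.
EGFR, chr7:55018767-55019016, plus strand: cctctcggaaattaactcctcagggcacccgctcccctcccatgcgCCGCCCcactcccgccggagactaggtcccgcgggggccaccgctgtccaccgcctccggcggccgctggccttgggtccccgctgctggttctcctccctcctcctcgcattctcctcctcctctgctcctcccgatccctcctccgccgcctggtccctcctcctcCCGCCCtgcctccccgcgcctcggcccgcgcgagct
TGFA, chr2:70553827-70554076, minus strand: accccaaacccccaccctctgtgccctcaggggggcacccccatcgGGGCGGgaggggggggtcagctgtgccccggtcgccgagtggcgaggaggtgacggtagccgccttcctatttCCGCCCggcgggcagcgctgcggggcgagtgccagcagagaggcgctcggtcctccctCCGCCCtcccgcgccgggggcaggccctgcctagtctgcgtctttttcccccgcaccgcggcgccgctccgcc
HBEGF, chr5:140346604-140346853, minus strand: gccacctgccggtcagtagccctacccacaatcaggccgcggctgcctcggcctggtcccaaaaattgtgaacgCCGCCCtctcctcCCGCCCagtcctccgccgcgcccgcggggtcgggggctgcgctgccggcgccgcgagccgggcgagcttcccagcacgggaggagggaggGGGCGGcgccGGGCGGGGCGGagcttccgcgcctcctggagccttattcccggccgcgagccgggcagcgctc
EREG, chr4:74364895-74365144, plus strand: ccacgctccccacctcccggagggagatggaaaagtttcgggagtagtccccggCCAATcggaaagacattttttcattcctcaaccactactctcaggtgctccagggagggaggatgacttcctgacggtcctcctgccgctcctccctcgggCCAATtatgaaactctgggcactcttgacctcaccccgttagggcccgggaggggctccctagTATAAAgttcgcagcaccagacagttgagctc

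The EGFR window held 2 GC boxes, the TGFA window 3 and the HBEGF window 5, 2 of which overlap each other, and none of these windows held a TATA box. The EREG window had the opposite layout, with a TATA box whose first base lies 32 bases before the start, 2 CCAAT boxes and no GC box. Of all 35116 promoter windows of this length in the table, 42.6% held a GC box, 10.7% a TATA box and 32% a CCAAT box. The G and C content was 73.6% for EGFR, 75.6% for TGFA, 76.4% for HBEGF and 58% for EREG, against a median of 58% over all windows. None of the 4 windows held an AP-1 site (TGANTCA), which 6.57% of all windows held, a cAMP response element (TGACGTCA; 1.65%) or an E-box (CACGTG; 6.34%). A second EGFR entry, an annotated start further downstream, held 2 AP-1 sites and 2 TATA boxes, and a second TGFA entry held none of the 6 motifs. A match describes letters only and is no evidence of binding.

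The median intensity of the 6 arrays lay between 25.6 and 25.9. The target was lowered on all 3 of its probe sets: PNO1 went from 534 ± 1.7 (SD, n = 3) to 106 ± 1.98 (SD, n = 3) on the brightest, 19.8% of control. One array stood apart in a sign of RNA quality, the log2 difference between the 3′ and 5′ signals of ACTB: it was 2.25 for sh-PNO1 replicate 2 and 1.73 to 1.87 for the other 5, so the counts below are also given without it. Of the epithelial markers, 4 of 8 (EPCAM, KRT8, KRT18, KRT19) were above all 23 background probe sets of the array, while KRT20 (24.4 in sh-Ctrl) and VIL1 (4.88) were dim. The summed intensity of the 8 lay between 8755 and 9172 for sh-Ctrl but between 9523 and 9879 for sh-PNO1, without overlap, and KRT19 (0.37, limma adjusted p = 5.60e-04) and CDH1 (0.31, limma adjusted p = 0.00222) passed as higher; their part in the family's changes was not tested. No marker of fibroblasts, blood cells or endothelium exceeded a mean of 37.5; 13 of the 14 listed were measured. The sum for fibroblasts ranged from 57.7 to 61.0 in sh-Ctrl against 56.9 to 61.5 after knockdown, that for blood cells from 67.2 to 69.0 against 69.0 to 73.4, and that for endothelium from 80.4 to 89.3 against 86.4 to 90.3.

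EGFR and each of the 4 ligands measured were lower on at least 1 probe set after PNO1 knockdown, while ERBB2 did not pass the test on any probe set and ERBB3 rose on 1. Fewer transcripts per cell and fewer cells expressing a gene cannot be told apart in such samples. A probe set passed at a limma adjusted p under 0.05, adjusted over all probe sets tested. Of the 28 probe sets, 10 passed as lower, 1 passed as higher and 17 did not pass. Over all probe sets tested 28.0% passed, 13.2% as lower and 14.8% as higher; with arrays scaled to housekeeping genes the share of calls that were higher moved from 53.0% to 69.6%. Without sh-PNO1 replicate 2 the family counts were again 10 lower and 1 higher, while 24.1% of all probe sets tested passed. The groups did not overlap in 15 of the 28 probe sets, against 40.2% of all probe sets; without sh-PNO1 replicate 2, a setting chosen after seeing the data, this was 18 of 28 against 47.8%. The median change of the 28 was −0.09, against 0.01 over all probe sets tested. A gene with more probe sets has more chances of a call on at least 1, and the share of all genes with such a decrease was not computed. By brightest probe set, EGFR, TGFA and HBEGF passed as lower, while EREG (limma adjusted p = 0.226) and BTC (limma adjusted p = 0.0528) did not. By the same measure 13.2% of all genes passed as lower. Every one of the 5 genes with a decrease also had at least 1 probe set that did not pass, and the genes are therefore described probe set by probe set.

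**Figure D1:**
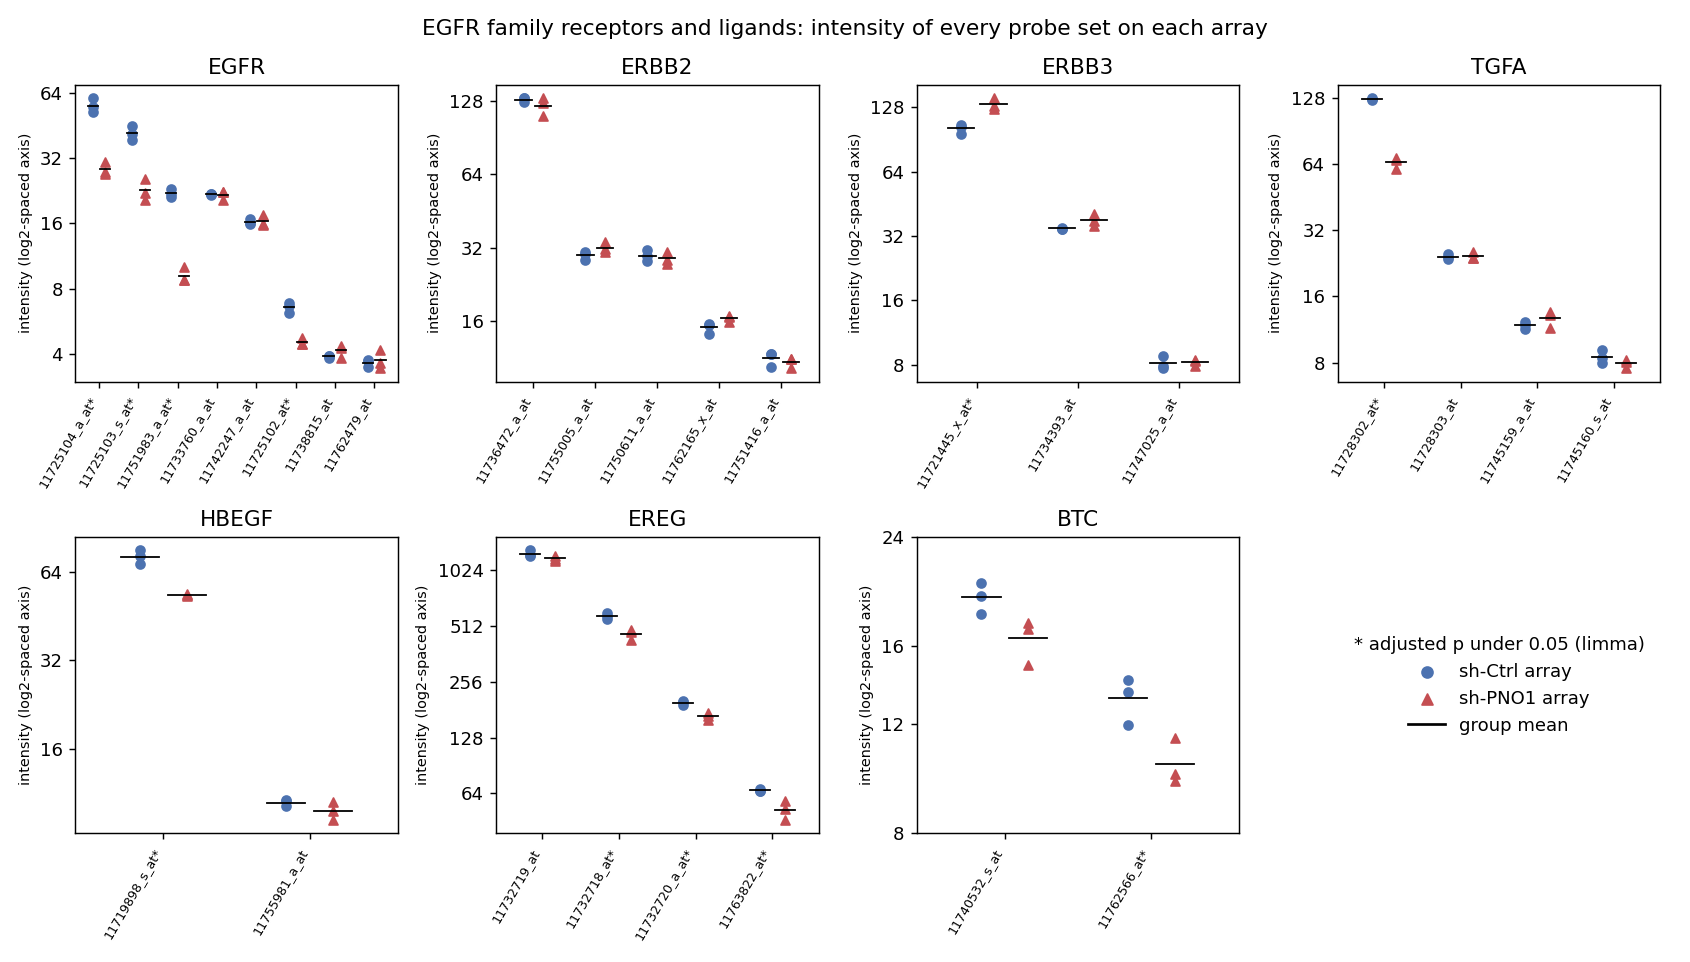
Intensity of each of the 28 probe sets on each array, by gene, on log2-spaced axes that differ between panels; circles are sh-Ctrl arrays, triangles sh-PNO1 arrays, lines group means, and an asterisk marks an adjusted p under 0.05. The group means of the brightest EGFR and TGFA probe sets are 56.0 against 28.5 and 127 against 65.3, with no overlap. The groups overlap on 4 of the 5 ERBB2 probe sets, on 11755005_a_at only through equal values of 30.7.

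EGFR itself, a receptor for AREG, EREG, TGFA, HBEGF and BTC, was lower on 4 of its 8 probe sets. On the brightest, 11725104_a_at, the sh-Ctrl arrays read 60.6, 55.0 and 52.6 and the sh-PNO1 arrays 30.8, 27.6 and 27.2. The highest sh-PNO1 array thus lay well under the lowest sh-Ctrl array, and the means of 56.0 ± 4.10 and 28.5 ± 1.98 (SD, n = 3) left 50.9% of the control signal (−0.97 ± 0.07 SE, limma adjusted p = 4.41e-05). Next in brightness, 11725103_s_at read 38.8, 45.2 and 41.4 in sh-Ctrl and 22.2, 20.6 and 25.6 in sh-PNO1, or 54.5% of control (−0.88 ± 0.09 SE, limma adjusted p = 2.25e-04). The groups were again apart, with sh-PNO1 replicate 3 the nearest to the controls.

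The largest EGFR change came from 11751983_a_at, which read 23.2, 21.1 and 21.8 in sh-Ctrl and 8.74, 10.04 and 8.73 in sh-PNO1. This left 41.6% of the control signal (−1.27 ± 0.07 SE, limma adjusted p = 1.13e-05), and 0.325% of all probe sets tested changed by more in either direction. The dim 11725102_at went from 6.88, 6.17 and 6.68 to 4.70, 4.45 and 4.44, with no overlap (−0.54 ± 0.06 SE, limma adjusted p = 2.42e-04). These 4 decreases passed under each of the 13 to 15 alternatives that keep the probe set. With the offset of 16 added to each intensity, 11751983_a_at stood at −0.60, 11725102_at at −0.14 and 11725103_s_at at −0.57, while 11725104_a_at, at −0.69, then had the largest change. With all 8 probe sets averaged EGFR stood at −0.44 (limma adjusted p = 3.86e-05).

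The other 4 EGFR probe sets did not pass, and each had arrays of both groups mixed. 11733760_a_at stood at 21.9 ± 0.18 in sh-Ctrl and 21.8 ± 1.01 in sh-PNO1 (SD, n = 3), with a change of −0.01 and a 95% interval of −0.12 to 0.10. That interval lies wholly above the one of 11751983_a_at, −1.42 to −1.11. 11742247_a_at changed by 0.01 (interval −0.12 to 0.14). The remaining pair, 11738815_at and 11762479_at, were at 3.89 and 3.64 in sh-Ctrl, near the dimmest values of the table, and changed by 0.09 and 0.04. Which EGFR transcripts each probe set reads was not used here.

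ERBB2, the ligandless partner receptor, did not pass on any of its 5 probe sets in limma, with 1 of 5 at an unadjusted p under 0.05. The brightest, 11736472_a_at, read 131.7, 126.8 and 131.7 in sh-Ctrl and 111.6, 125.9 and 131.7 in sh-PNO1. In sh-PNO1, replicates 1 and 2 lay below every control and replicate 3 within the control range, and the change of −0.08 had a 95% interval of −0.23 to 0.07 (limma adjusted p = 0.401). The other 4 changed by −0.05 to 0.12. On 11762165_x_at the groups did not overlap, 14.1 to 15.5 against 15.8 to 16.6, a change of 0.12 (limma adjusted p = 0.122) that passed with arrays scaled to housekeeping genes (0.18, limma adjusted p = 0.0468).

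ERBB3, the neuregulin receptor, rose on its brightest probe set alone. 11721445_x_at read 106, 95.9 and 104 in sh-Ctrl and 141, 126 and 130 in sh-PNO1. All sh-PNO1 arrays were above all controls, and the level reached 130% of control (0.37 ± 0.06 SE, limma adjusted p = 0.00242). A probe set with the suffix _x_at can match several transcripts, and this was the only ERBB3 call; with all 3 probe sets averaged ERBB3 stood at 0.17 (limma adjusted p = 0.0195). On 11734393_at the sh-Ctrl arrays read 35.03, 34.7 and 34.7 and the sh-PNO1 arrays 37.7, 35.8 and 40.4, apart but close (0.12, interval −0.0002 to 0.25, limma adjusted p = 0.131). The dim 11747025_a_at changed by 0.02, with mixed arrays.

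**Figure D2:**
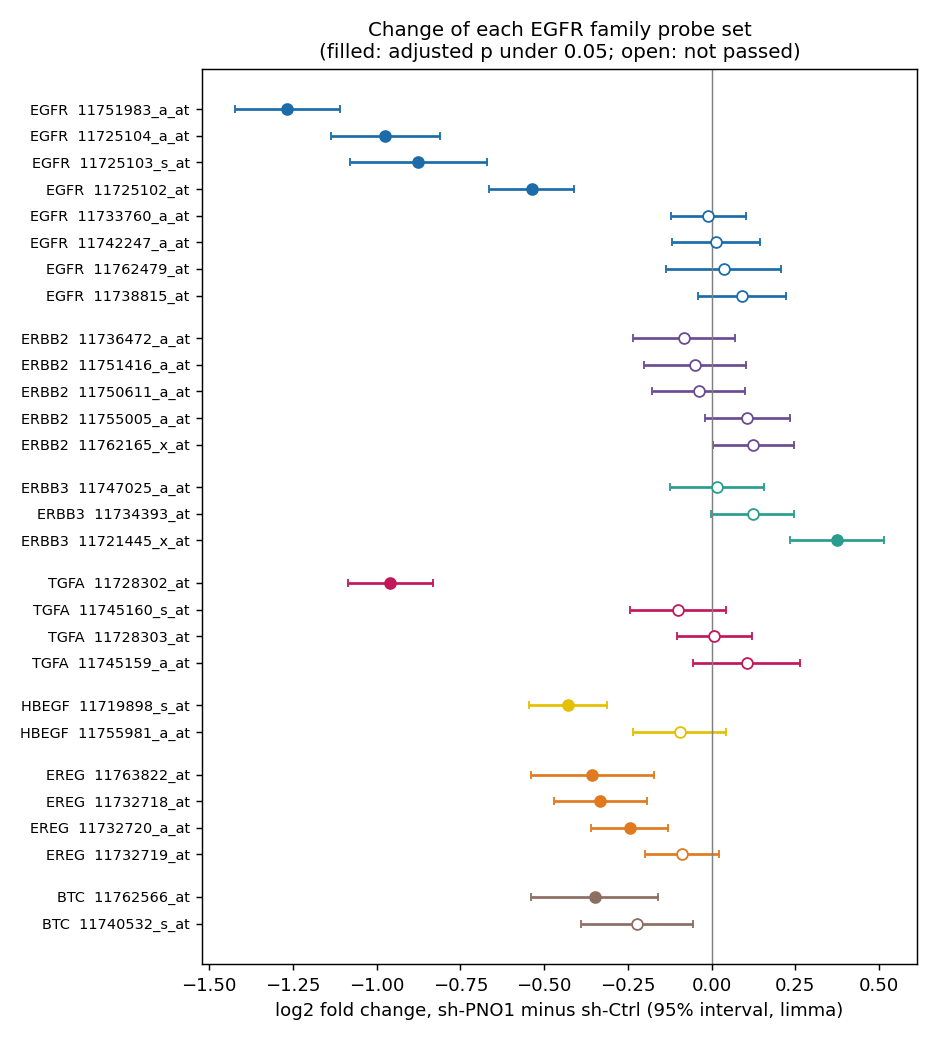
Log2 fold change of each probe set with its 95% interval from limma, grouped by gene, filled where the adjusted p is under 0.05. The intervals of 4 EGFR probe sets and 1 TGFA probe set lie wholly below 0, with upper ends of −0.41 or lower, while those of the ERBB2 probe sets all lie between −0.23 and 0.24.

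TGFA encodes transforming growth factor alpha, which binds EGFR, and was lower on 1 of 4 probe sets. Its brightest probe set, 11728302_at, read 126, 127 and 127 in sh-Ctrl and 60.5, 67.0 and 68.3 in sh-PNO1. The controls were nearly identical, and every sh-PNO1 array lay far below them (127 ± 0.82 to 65.3 ± 4.17, SD, n = 3), 51.4% of control (−0.96 ± 0.06 SE, limma adjusted p = 1.53e-05). The other 3 TGFA probe sets, at 24.3, 11.8 and 8.51 in sh-Ctrl, changed by 0.01, 0.11 and −0.10, did not pass and had mixed arrays. With all 4 averaged TGFA stood at −0.24 (limma adjusted p = 0.00106).

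HBEGF, heparin-binding EGF-like growth factor, which binds EGFR and ERBB4, was lower on 1 of 2 probe sets. 11719898_s_at read 68.4, 72.5 and 76.1 in sh-Ctrl and 53.3, 54.0 and 53.7 in sh-PNO1. Here the knockdown arrays were the tighter group, and they lay at 74.3% of control (−0.43 ± 0.05 SE, limma adjusted p = 4.86e-04). The dim 11755981_a_at, between 10.2 and 10.6 for sh-Ctrl and between 9.13 and 10.5 for sh-PNO1, changed by −0.10 (limma adjusted p = 0.288). Averaged, both gave −0.26 (limma adjusted p = 0.0021). The only HBEGF call was on a probe set with the suffix _s_at. With _x_at and _s_at probe sets left out, 11755981_a_at alone stood for the gene, and it passed under 0 of the 13 alternatives that keep it.

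EREG, epiregulin, which binds EGFR and ERBB4, was lower on 3 of 4 probe sets. 11732718_at read 583, 562 and 605 in sh-Ctrl and 430, 486 and 477 in sh-PNO1, 79.5% of control (−0.33 ± 0.06 SE, limma adjusted p = 0.00409). 11732720_a_at went from 192, 198 and 203 to 168, 174 and 159 (−0.24 ± 0.05 SE, limma adjusted p = 0.0072). On both, every sh-PNO1 array was below every control. 11763822_at went from 65.8, 65.8 and 67.6 to 46.0, 52.4 and 57.9, with a wider spread in sh-PNO1 (−0.36 ± 0.08 SE, limma adjusted p = 0.0118; 0.0518 without sh-Ctrl replicate 3).

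The brightest EREG probe set, 11732719_at, did not pass. It read 1240, 1315 and 1231 in sh-Ctrl and 1225, 1183 and 1153 in sh-PNO1, so the groups were apart by the narrowest of margins, with a change of −0.09 and an interval of −0.20 to 0.02 (limma adjusted p = 0.226). It was the only probe set of the family above all 23 background probe sets, the brightest of which had a mean of 773. With all 4 probe sets averaged EREG stood at −0.26 (limma adjusted p = 0.00105).

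BTC, betacellulin, which binds EGFR and ERBB4, was dim and its decrease was less certain. 11762566_at read 13.5, 11.9 and 14.1 in sh-Ctrl and 9.72, 11.4 and 9.98 in sh-PNO1 (−0.35 ± 0.08 SE, limma adjusted p = 0.0144). The groups were apart by a small gap, and the call was lost without sh-Ctrl replicate 1 or 3 or sh-PNO1 replicate 1 or 3, with an adjusted p of 0.0608 to 0.0645. With the offset of 16 it stood at −0.15. 11740532_s_at read 19.3, 20.2 and 18.0 against 14.9, 17.4 and 17.1 and just missed the threshold (−0.22, limma adjusted p = 0.0528), and it passed under 4 of the 14 alternatives that keep this probe set. Both BTC values moved in 1 direction, and averaged they gave −0.29 (limma adjusted p = 0.00464).

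**Figure D3:**
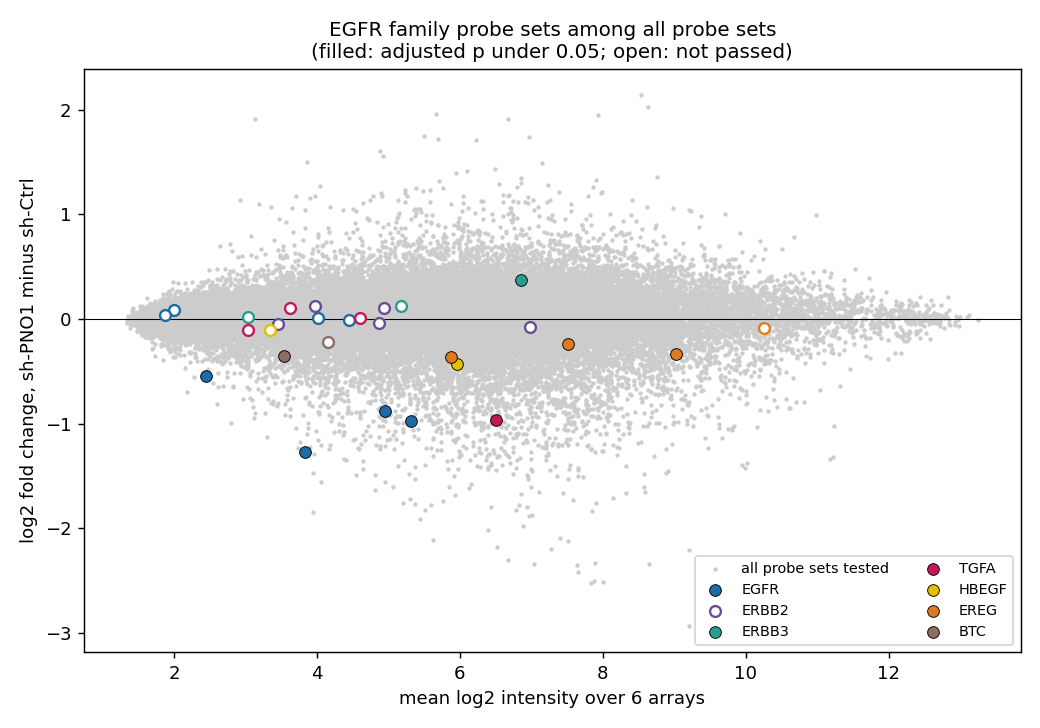
Log2 fold change against mean log2 intensity over the 6 arrays for all 49293 probe sets tested (grey) and the 28 of the EGFR family (coloured, filled where the adjusted p is under 0.05). The EGFR probe sets that passed have changes of −1.27 to −0.54, and between 0.325% and 4.99% of all probe sets changed by more than each. The 4 EREG probe sets are brighter than 66.7% to 98.0% of all probe sets and have changes of −0.36 to −0.09. ERBB3 holds the only filled point above 0.

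How like these patterns were to those of other genes was measured by the root-mean-square distance of log2 values over the 6 arrays. Each gene was centred on its own sh-Ctrl mean, so the distance depends mostly on the size of the change and says little beyond it. For EGFR, the member whose brightest probe set fell most, the nearest genes were NUP210, a nuclear pore protein (distance 0.04, change −1.01), FOXK2, a forkhead transcription factor (0.06, −1.002), and UBXN2B (0.07, −0.98). For ERBB3, the member that rose most, they were FBRSL1 (0.02, change 0.36), RNASET2, a ribonuclease (0.02, 0.36), and RASAL2, a RAS GTPase-activating protein (0.03, 0.38).

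The remaining receptor and ligands of the family were mostly dim. Each gene outside the 8 was represented by its brightest probe set; over all 18132 genes so measured 18.4% passed as higher and 13.2% as lower, with a median change of 0.03. Of 7 other receptors and ligands measured, 1 passed as higher and none as lower, with a median of 0.04. It was NRG1, a neuregulin that binds ERBB3 and ERBB4, which rose from 39.3 ± 2.28 to 57.1 ± 2.77 (SD, n = 3; 0.54 ± 0.06 SE, limma adjusted p = 3.54e-04); 3 of 8 NRG1 probe sets passed as higher. ERBB4, EGF, EPGN, NRG2, NRG3 and NRG4 did not exceed 9.51 in either group and changed by −0.13 to 0.16, although ERBB4 also passed as higher without sh-PNO1 replicate 2 and EPGN as lower without sh-Ctrl replicate 3.

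Of 13 genes of ligand shedding, among them proteases, proteins that help their release and the metalloprotease inhibitor TIMP3, which did not pass, 7 passed as lower and 1 as higher, with a median change of −0.15. ADAM9, a membrane metalloprotease, fell from 1138 ± 102 to 551 ± 18.3 (SD, n = 3; −1.04 ± 0.07 SE, limma adjusted p = 2.78e-05), on 4 of 4 probe sets. ADAM15 changed by −0.38 (3 of 6 probe sets lower). ADAM19 changed by −0.81 on 1 of 4 probe sets and FRMD8, which stabilises the sheddase with the iRhom proteins, by −0.34 on 1 of 3. With _x_at and _s_at probe sets left out, other probe sets stood for these genes and read 0.13 (limma adjusted p = 0.369) and −0.03 (0.826). ADAM17, the main sheddase of TGFA, HBEGF, AREG and EREG, named after its value was seen, went from 369 ± 15.5 to 333 ± 2.63 (−0.15, limma adjusted p = 0.0478) and did not pass under 11 of 16 alternatives. ADAM10, the main sheddase of BTC, also named after its value was seen, stood at 0.01 (limma adjusted p = 0.972). The count of genes that passed in either direction, 8, was 4 to 6 when single arrays were left out, 5 without sh-PNO1 replicate 2 and 4 without sh-Ctrl replicate 1 or 3, and 4 with the replicate block. Calls over all probe sets fell as well, from 28.0% to between 22.0% and 24.1% with single arrays left out and to 26.3% with the replicate block.

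Adaptors and effectors inside the cell went both ways. Of 23 measured of 31 listed, 7 passed as higher and 6 as lower, with a median of 0.06. Without sh-PNO1 replicate 2, where 24.1% of all probe sets passed against 28.0% with all arrays, the counts were 7 and 4. STAT3, a transcription factor that the receptors activate, rose from 151 ± 3.40 to 264 ± 20.1 (SD, n = 3; 0.80 ± 0.06 SE, limma adjusted p = 5.38e-05), on 3 of 3 probe sets. The kinase AKT1 rose by 0.58 on 2 of 3. The adaptor SHC1, which docks on the activated receptor, changed by −0.51 ± 0.04 SE, on 4 of 4 probe sets. GRB2, the adaptor that links the receptor to SOS and RAS, changed by −0.44 on 1 of 2. With _x_at and _s_at probe sets left out its other probe set stood for it, at −0.15 (limma adjusted p = 0.102).

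Genes that restrain the receptors or carry them to degradation were also split. Of 22 measured of 23 listed, 6 passed as higher and 5 as lower, with a median of 0.01. Without sh-PNO1 replicate 2, where 24.1% of all probe sets passed against 28.0% with all arrays, the counts were 5 and 4. STAM2, which sorts ubiquitinated receptors on endosomes, went from 124 ± 1.62 to 41.4 ± 0.90 (SD, n = 3; −1.58 ± 0.04 SE, limma adjusted p = 8.24e-07), with 3 of 4 probe sets lower. CBL, the ubiquitin ligase that marks active EGFR, went from 313 ± 3.33 to 149 ± 2.84 (−1.07 ± 0.04 SE, limma adjusted p = 3.38e-06), with 3 of 4 lower. CAV1, caveolin-1, rose by 0.44 on 4 of 4 probe sets. LRIG1, a membrane inhibitor of the receptors, changed by −0.44 on 1 of 2 (limma adjusted p = 0.0361; −0.29 with the offset of 16), a call lost under 6 of 16 alternatives, among them without sh-PNO1 replicate 2 (0.108), without sh-PNO1 replicate 1 (0.143) and without sh-Ctrl replicate 1 (0.0697) or 2 (0.0771).

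**Figure D4:**
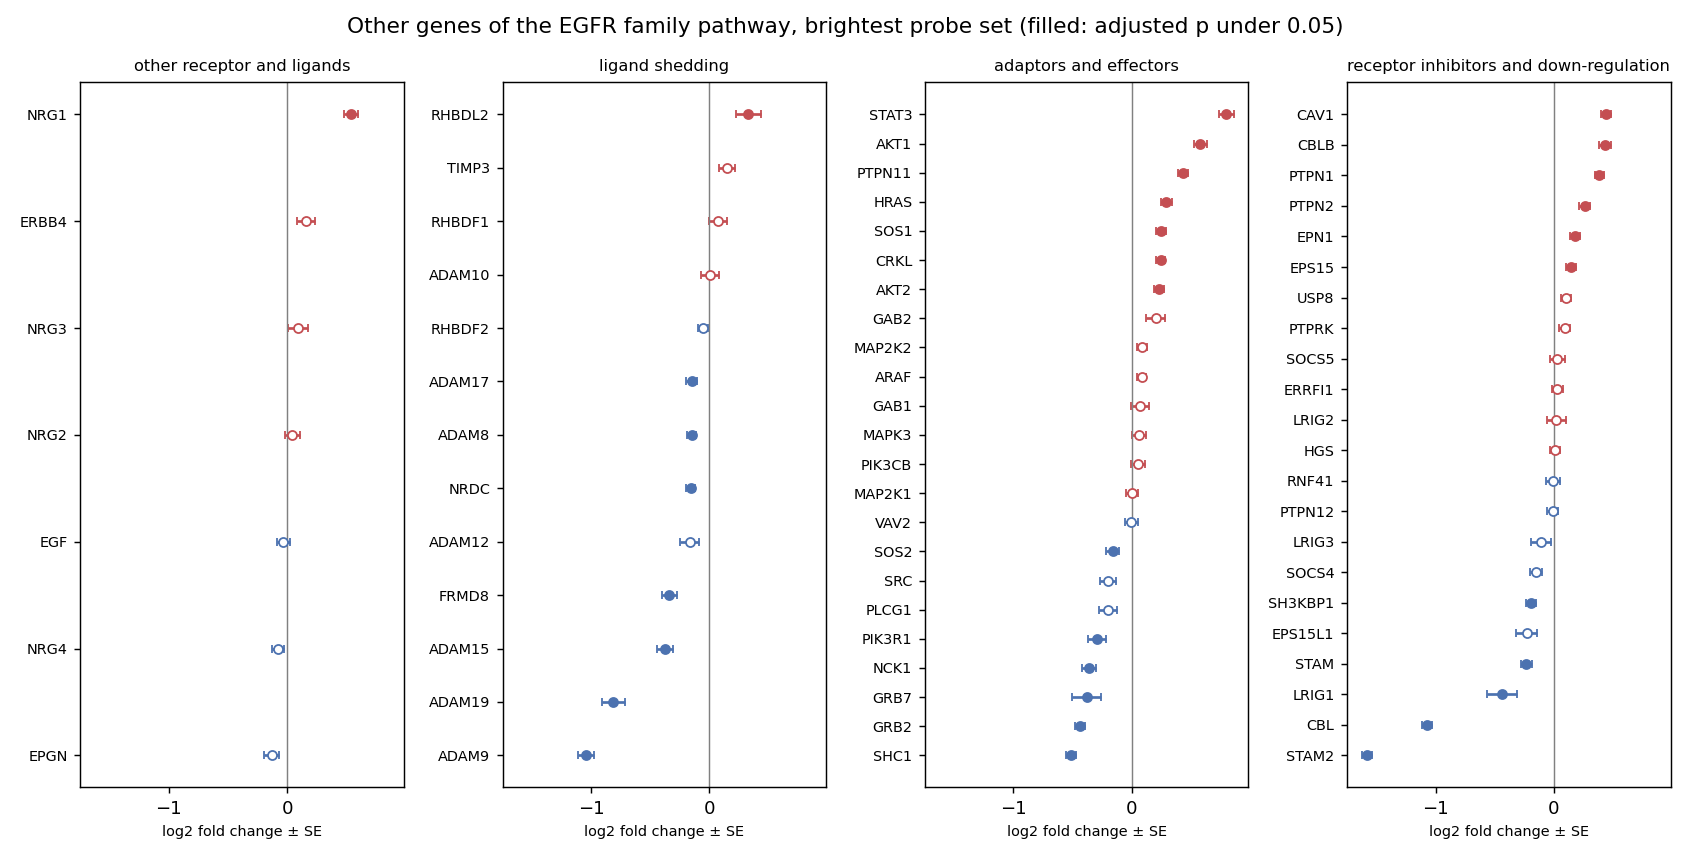
Log2 fold change ± SE of the brightest probe set of each pathway gene measured, in the 4 lists, filled where the adjusted p is under 0.05. STAM2 (−1.58), CBL (−1.07) and ADAM9 (−1.04) lie furthest to the left and STAT3 (0.80) furthest to the right.

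Dim probe sets limit how far these changes can be read. The array's 23 background probe sets, which differ in GC content, had means between 2.53 and 773, and no GC content was used here for the family's own probe sets. The EGFR probe set with the largest change was above 16 of these 23 in sh-Ctrl and the TGFA one above 20. Because arrays were normalised to each other, a change common to all transcripts would not appear in these values.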

How the data were processed

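The values deposited by the authors are linear intensities of 49395 probe sets on 6 arrays. They were made with RMA, per the submitters' processing notes, which give no version; its background step, the software and the build were not given in the sources used here. Labelled RNA was biotinylated cRNA from 100 ng of total RNA, per the labels' protocols. Groups and replicate numbers came from sample titles. After log2, the 49293 probe sets that are no controls were modelled with limma 3.58.1 under R 4.3.3 (functions lmFit and eBayes), sh-PNO1 minus sh-Ctrl, no covariate, with Benjamini-Hochberg adjustment over all of them; this step was tested on simulated data. Of these, 44988 had 1 gene symbol, 1832 several and 2473 none; 44961 of the first were found by gene identifier in the GRCh38.p14 table, and 0 symbols changed. The number of arrays limits the precision. Deviations of same-numbered arrays from their group means correlated at −0.04, 0.10 and −0.03, so the numbers were not taken to pair the samples.

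The genes, lists and tests were chosen with earlier results of these data known. Named are every probe set of the 8 genes and PNO1, in each list up to 4 genes that passed with the largest change, the 3 genes nearest to the member that rose and to the one that fell most, and markers. The 16 alternatives were other scalings, an offset of 16, the dimmest 30% left out, a mean-variance trend, a replicate block, probe sets of suffix _x_at and _s_at left out, 1 or averaged probe sets per gene, and each array left out.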

Additional observations from a re-analysis of the deposited data

How the results depend on the processing

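Of 387 values of single family probe sets under the 15 alternatives that keep them, 5 lost the call, 6 gained it, 376 stayed on their side of the threshold and 0 called values changed sign. The PNO1 decrease passed throughout. With the replicate block the family counts were again 10 lower and 1 higher, and the count of ligand shedding genes fell from 8 to 4. The 10 lower probe sets became 4 genes with the brightest probe set per gene and 5 with probe sets averaged, where 7 features are tested. The 1 higher probe set became 3 with arrays scaled to housekeeping genes. It became 0 without _x_at and _s_at probe sets, where the ERBB3 probe set is left out. Among the lower calls, that setting also leaves out the only HBEGF call and EGFR 11725103_s_at. Of all features tested, 26.3% passed with the replicate block, 34.1% with the brightest probe set per gene and 33.7% with probe sets averaged. With housekeeping scaling 32.3% passed, and 69.6% of these calls were higher. Without _x_at and _s_at probe sets 24.9% passed. The count of ligand shedding genes was 5 with housekeeping scaling and 3 without _x_at and _s_at probe sets. It was 3 with probe sets averaged and 4 to 6 with single arrays left out, where 22.0% to 24.1% of all probe sets passed. The count of other receptors and ligands was 1 to 2 with single arrays left out, and 2 without sh-Ctrl replicate 3 or sh-PNO1 replicate 2. The cause was not tested. Without _x_at and _s_at probe sets the brightest probe set of ADAM19 is left out, and another, at 0.13, stood for the gene. Signal over background, above all for BTC, and 3 arrays a group limit small changes.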
